A study of Arabidopsis thaliana with 9 samples.

Results

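In dark-grown Arabidopsis thaliana seedlings, 59 genes had more transcript in the mutant cop1-4 than in the wild type Col-0, while the mutant spaQ stayed near Col-0. They were selected on their measured levels in all 9 libraries, out of 32548 counted genes with AT identifiers. Each gene's count was taken as CPM, its share of the library's total scaled to 1000000 reads. For each mutant, L was defined as the log2 ratio of the mutant's mean CPM to the Col-0 mean CPM, with 0.5 added to both, minus the median of that ratio over the 16821 genes with at least 1 CPM in every library. An L of 1 is therefore a doubling relative to the median gene. A gene was kept when L in cop1-4 was at least 0.9, L in spaQ was between -0.3 and 0.3, and every cop1-4 library had a higher CPM than every spaQ and Col-0 library. Because the rule used every library, the values of the 59 genes are a description and carry no test.

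The libraries came from seedlings that were 3 days old and grown in darkness, with 3 libraries each of cop1-4, spaQ and Col-0, and both mutants are labelled as being in the Col-0 background. The name cop1-4 stands for a viable, weak allele of COP1. The name spaQ is used for a mutant in all of SPA1, SPA2, SPA3 and SPA4, and the labels do not give its alleles. All 3 genotypes had the same treatment: 3 days at 4 °C in darkness, 3 h of white light, 21 h of darkness, a far-red treatment of the seeds and 2 further days of darkness. Whole seedlings were sampled, so in these data fewer cells of a type and less RNA per cell cannot be told apart. Nothing in the labels says that the 3 libraries of a genotype came from separate sowings, so the spread between them may be technical.

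COP1 is the ubiquitin ligase that holds back light responses in darkness by marking light-promoting transcription factors, such as HY5, for degradation. The SPA proteins bind COP1 and act with it in one complex, and loss of either lets seedlings develop in the dark as though in light. PIF transcription factors, which bind G-box DNA, promote growth in the dark and are themselves under the control of phytochromes and of this complex.

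By the steps of the rule, 2563 genes had L of at least 0.9 in cop1-4, 61 of these (2.38%) had L in spaQ within the window around 0, and 59 of the 61 had no overlap of the cop1-4 libraries with any other library. Of all 20779 genes tested below, 5.12% had cop1-4 above the other libraries without overlap. The mirrored rule, with spaQ and cop1-4 exchanged, gave 170 genes out of 3462 with L of at least 0.9 in spaQ. Both values of L rest on the same Col-0 libraries.

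**Figure D1:**
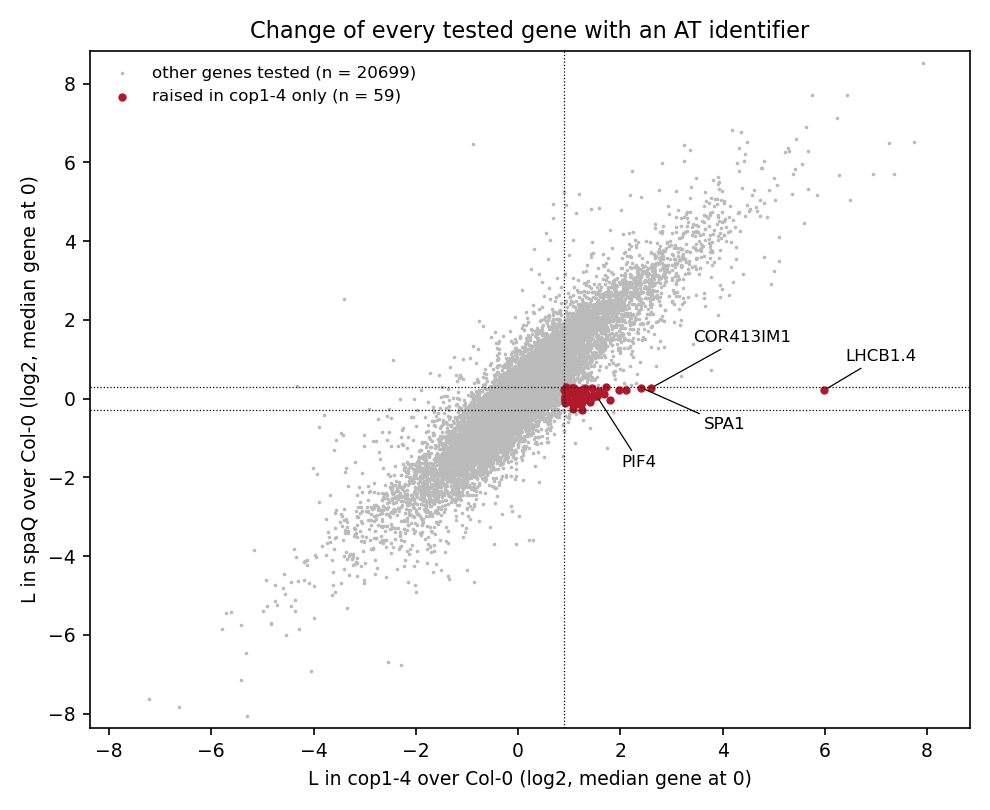
Each point is a tested gene with an AT identifier (21 tested genes have others and are not drawn), with L in cop1-4 on the horizontal axis and L in spaQ on the vertical axis (both log2, median gene at 0). The 59 genes are red, the 20699 others grey, and dotted lines mark 0.9 and ±0.3. LHCB1.4 lies far to the right of the other red points, at 5.98 in cop1-4 and 0.21 in spaQ, and both axes share the Col-0 libraries.

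Within the set, L in cop1-4 had a median of 1.12 and ran from 0.91 to 5.98, with 4 genes above 2, 10 above 1.5 and 34 below 1.2. L in spaQ had a median of 0.10, was above 0 in 41 genes and below 0 in 18. Most members were of low abundance: the median member had 9.96 CPM in cop1-4, 3.41 CPM in spaQ and 4.67 CPM in Col-0, and 15 had a Col-0 mean under 1 CPM. Summed over the 59 genes, transcript levels were 6161, 6487 and 6460 CPM in the cop1-4 libraries, 2907, 3061 and 3177 CPM in spaQ and 3256, 3349 and 3280 CPM in Col-0. ACT2 alone made up a large part of each sum. The gap between the lowest cop1-4 library and the highest other library was 1.6-fold in the median gene, 34.4-fold in LHCB1.4 and 1.1-fold in AT4G33980.

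The rule limits L in spaQ, so it largely fixed the overlap counts that follow, and nothing is read from them. On CPM from library totals, spaQ lay below Col-0 without overlap in 21 of the 59 genes, above it in 0, and overlapped it in 38, where 55% of all genes tested were below and 24% above. After scaling to the median gene, which moves spaQ up by 0.33 and cop1-4 up by 0.26 on the log2 scale, the spaQ and Col-0 libraries overlapped in 50 genes. In 7 genes (against 35.3% of all genes tested) spaQ was then above Col-0 without overlap: SPA1, CYP87A2, SPP1, CEL5, ACT2, AT3G07540 and AT1G69252. In the non-coding gene AT3G61198 and the ABC transporter gene ABCG23, spaQ was below Col-0 without overlap on both scales, as 40.2% of all genes were after the median scaling. For ABCG23 this rests on few reads, 4, 5 and 2 in the spaQ libraries and 7, 6 and 11 in Col-0.

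**Figure D2:**
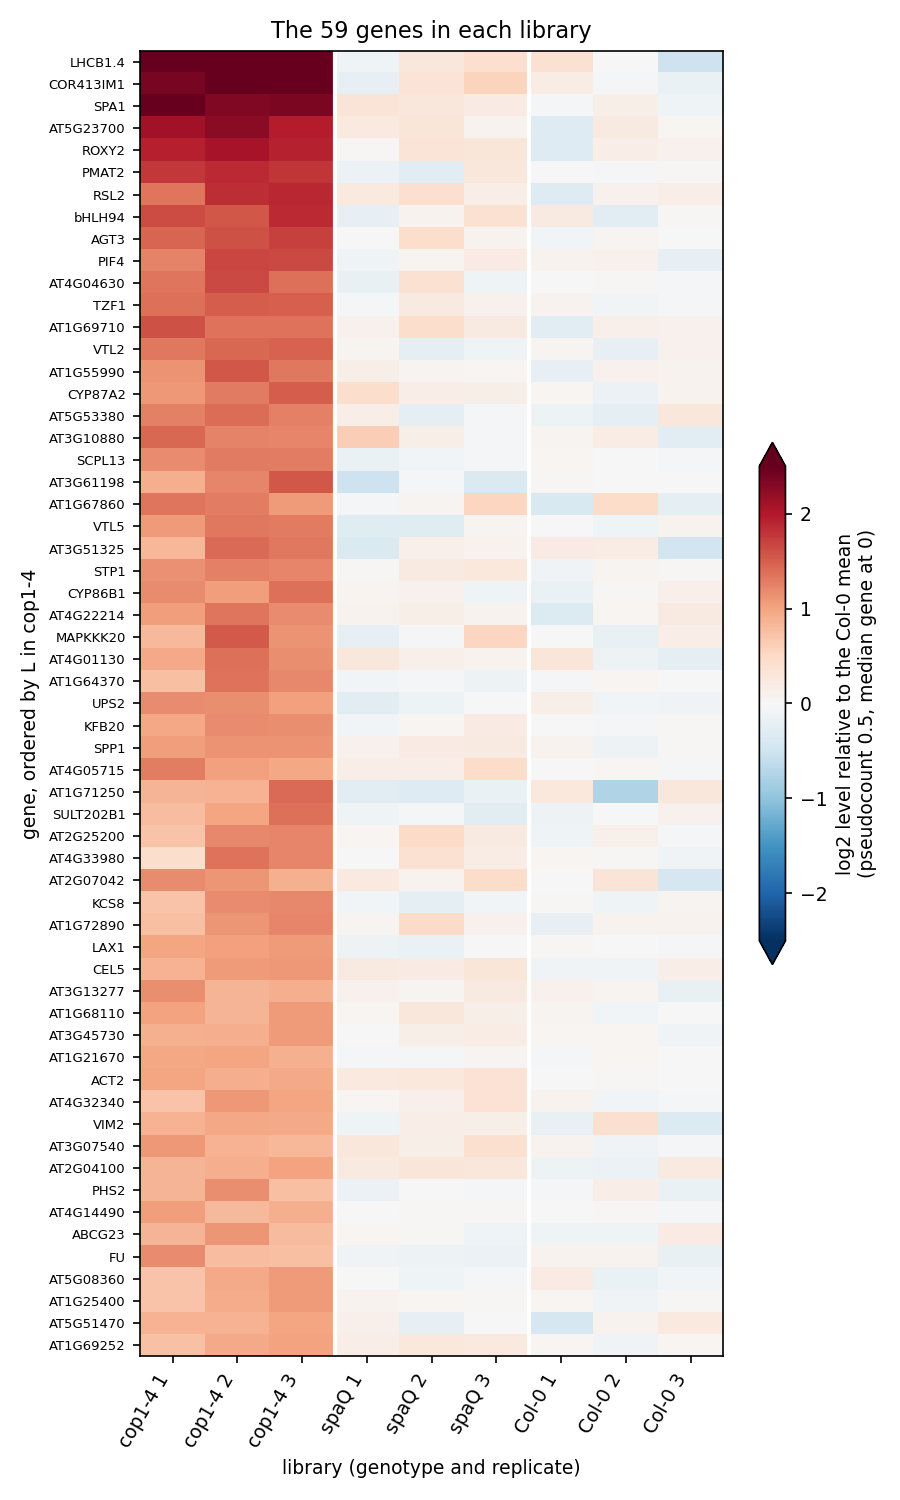
Each row is 1 of the 59 genes, ordered by L in cop1-4, and each column a library; colour gives the log2 level relative to the Col-0 mean (pseudocount 0.5, median gene at 0), saturating at ±2.5. The 3 cop1-4 columns are pale to dark red in every row, while the 3 spaQ and 3 Col-0 columns are pale, with single darker cells in genes of low count such as AT1G71250.

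The members nearest the limits were close to genes left out. At the fold limit, AT1G69252, AT5G51470 and AT1G25400 each had L of 0.91 in cop1-4, and just outside stood AT2G24030 (0.90 after rounding), TCP14 (0.89) and AT1G19400 (0.88). At the spaQ limit, ACT2 (0.29), AT3G61198 (-0.29) and RSL2 (0.28) were kept, and AT5G50450 (0.30), NSP3 (0.30) and AT5G20860 (0.31) were not. By the overlap condition AT4G33980, VIM2 and PHS2 were the closest to being left out, and AT1G58320 and AT1G13500 were left out by it. With 1 library left out at a time the rule gave 52 to 69 genes, and 24 of the 59 met it in all 9 repeats, among them PIF4, AGT3, STP1, TZF1 and KFB20. LHCB1.4, COR413IM1 and ROXY2 each met it in 7 repeats and SPA1 in 8, because L in spaQ reached 0.43, 0.47, 0.32 and 0.34 in single repeats, while L in cop1-4 stayed at or above 5.79, 2.51, 1.83 and 2.32. Scaling by library totals without the median step gave 63 genes, of which 21 were among the 59.

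The targeted gene was read first as a check of the labels. COP1 transcripts stood at 32.8, 28.5 and 27.8 CPM in cop1-4, 72.4, 75.2 and 67.4 CPM in spaQ and 35.1, 40.6 and 34.7 CPM in Col-0. COP1 in cop1-4 differed from Col-0 by 0.01 on the log2 scale (SE 0.096, Benjamini-Hochberg adjusted p = 0.949 in edgeR's quasi-likelihood fit), and its sign depends on the scaling (-0.31 with library totals). Since reads can still be counted from a mutant locus, this value does not check the cop1-4 label, nor do the SPA counts below check the spaQ label. Directions drawn from either mutant rest on the labels.

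Genes of light signalling and photosynthesis were few in the set but included the gene with the largest L. SPA1 (AT2G46340, chr2:19022154-19027528, minus strand, TAIR10.1), whose product is a COP1 partner, had 180.0, 153 and 157 CPM in cop1-4, 36.6, 35.4 and 33.7 CPM in spaQ and 35.3, 40.3 and 34.1 CPM in Col-0. The cop1-4 libraries were all more than 3 times as high as any other. In CPM spaQ and Col-0 overlapped, but after scaling to the median gene spaQ was above Col-0 without overlap. L was 2.41 in cop1-4 and 0.28 in spaQ. SPA1 is by name one of the loci mutated in spaQ, so its level there is that of a mutant locus, and the part this plays in its place in the set was not tested.

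The other SPA genes did not follow SPA1 together. By name they too are mutated in spaQ, so their levels there are those of mutant loci. SPA3 was close to it, with 88.0 ± 14.1 CPM in cop1-4, 23.9 ± 0.599 CPM in spaQ and 24.0 ± 1.58 CPM in Col-0 (SD, n = 3), and it missed the set by an L of 0.32 in spaQ. SPA4 rose in both mutants, by 1.67 on the log2 scale in cop1-4 (adjusted p = 1.3e-09) and by 2.42 in spaQ (adjusted p = 8.5e-12, edgeR). SPA2 had log2 fold changes of 0.30 in cop1-4 (adjusted p = 0.0202, edgeR) and 0.06 in spaQ (adjusted p = 0.610). Leaving out Col-0 replicate 1 (0.26), cop1-4 replicate 1 (0.16) or Col-0 replicate 3 (0.27) ended the SPA2 call in cop1-4, and library totals turned its sign (-0.013). Of the 10 genes listed for the COP1-SPA ligase and the related DET1 complex, SPA1 included, 8 were called higher in cop1-4, 0 lower and 2 were not called, with a median log2 fold change of 0.40 against 0.01 over all genes tested. In spaQ the count was also 8 higher and 0 lower, with a median of 0.35 against -0.02. The genes called higher in spaQ include SPA1, SPA3 and SPA4, which are mutant loci there. Over all genes tested, 31.8% were called higher in cop1-4 and 35.5% in spaQ, and the rule fixed the call of SPA1 in cop1-4. With library totals the list counts became 4 higher and 1 lower in cop1-4 and 4 higher and 2 lower in spaQ.

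The promoter of SPA1 is printed because of the size of its difference. The sequence is the 250 bases before the annotated start, chr2:19027529-19027778 of TAIR10.1 on the minus strand, written 5′ to 3′. In this and the following promoters, capitals mark ACGT cores, the G-box CACGTG, the evening element AAATATCT, the CCA1-binding site AAAAATCT and the I-box GATAAG, found on either strand.
SPA1: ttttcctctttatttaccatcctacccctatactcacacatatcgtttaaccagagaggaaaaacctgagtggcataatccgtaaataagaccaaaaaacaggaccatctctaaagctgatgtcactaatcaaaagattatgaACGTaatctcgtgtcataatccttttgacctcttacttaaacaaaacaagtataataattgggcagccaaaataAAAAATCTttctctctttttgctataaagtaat
The window held 1 ACGT core, at -107 from the start, and 1 CCA1-binding site, at -33, and none of the other marked motifs.

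PIF4 (AT2G43010, chr2:17886101-17889087, plus strand), a bHLH factor that promotes hypocotyl elongation in warmth and shade, had 31.9, 42.9 and 42.1 CPM in cop1-4, 11.8, 13.2 and 14.5 CPM in spaQ and 16.8, 17 and 13.7 CPM in Col-0. Its cop1-4 libraries were all above the rest, and spaQ overlapped Col-0. L was 1.53 in cop1-4 and 0.07 in spaQ, and the gene met the rule in every repeat with a library left out.

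The 8 PIF family genes went in different directions. PIF5, PIF7 and PIF8 rose in both mutants, with log2 fold changes of 3.09, 4.17 and 1.45 in cop1-4 and 2.55, 4.66 and 3.05 in spaQ. PIF3 fell by 1.59 in cop1-4 and by 1.52 in spaQ, and PIL1 fell by 2.27 in cop1-4 and 0.78 in spaQ. PIF6, which is overlapped over its whole length by other genes, is uncertain. In all, 5 of the 8 were called higher and 3 lower in cop1-4 (edgeR, adjusted p below 0.05). In spaQ 4 were called higher, 3 lower and 1 not called. Over all genes tested, 62.1% were called in either direction in cop1-4 and 71.6% in spaQ. PIF4 was the gene not called, and it is counted here although the rule selected it. PIF1 turned its sign in spaQ with library totals (0.28 with TMM, -0.091 with library totals). Both comparisons share the Col-0 libraries. The promoter of PIF4 (chr2:17885851-17886100, plus strand) is shown for its ACGT cores.
PIF4: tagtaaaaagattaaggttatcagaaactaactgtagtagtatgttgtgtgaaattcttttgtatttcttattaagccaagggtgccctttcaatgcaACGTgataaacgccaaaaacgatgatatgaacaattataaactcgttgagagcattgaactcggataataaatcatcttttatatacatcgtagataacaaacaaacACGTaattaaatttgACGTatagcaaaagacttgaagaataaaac
It held 3 ACGT cores, at -152, -45 and -30, and no G-box.

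LHCB1.4 (AT2G34430, chr2:14524607-14525918, plus strand) encodes a chlorophyll-binding protein of the light-harvesting antenna of photosystem II. It had 370.0, 541 and 458 CPM in cop1-4, 5.86, 7.87 and 8.69 CPM in spaQ and 10.7, 8.21 and 5.52 CPM in Col-0. The lowest cop1-4 library was far above all other libraries, and spaQ and Col-0 overlapped. L was 5.98 in cop1-4 and 0.21 in spaQ, a 63.3-fold difference in cop1-4 relative to the median gene, and the largest in the set. Its level per kilobase of transcript in cop1-4 was 348 CPM, second in the set to ACT2 (1352 CPM per kilobase).

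The relatives LHCB1.1, LHCB1.2 and LHCB1.3 were higher than Col-0 in spaQ as well. LHCB1.1 had an L of 7.35 in cop1-4 and 5.70 in spaQ, LHCB1.2 had 5.0 and 3.23, and LHCB1.3 had 2.24 and 1.06. LHCB1.5 is listed at 0 in every library and is overlapped over its whole length by other genes, so its level is not known. Over 806 aligned bases of its 1312-base transcript LHCB1.4 was 91.4% identical to LHCB1.5 and over 808 bases 88.2% identical to LHCB1.2, and how reads that match several copies were counted is not given in the sources used here. Of 10 listed antenna genes, none a member, 10 were called higher in cop1-4 and 10 in spaQ. The shares over all genes tested were 31.8% and 35.5%. Median log2 fold changes of the list were 3.04 in cop1-4 (all genes 0.01) and 2.16 in spaQ (all genes -0.02). The promoter of LHCB1.4 (chr2:14524357-14524606, plus strand) is shown as that of the gene with the largest L.
LHCB1.4: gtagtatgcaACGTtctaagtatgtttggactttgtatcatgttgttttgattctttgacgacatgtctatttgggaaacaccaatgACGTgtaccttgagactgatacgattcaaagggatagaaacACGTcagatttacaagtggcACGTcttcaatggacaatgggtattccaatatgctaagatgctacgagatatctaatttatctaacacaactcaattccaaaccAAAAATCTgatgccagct
Its window held 4 ACGT cores, at -240, -163, -122 and -102, and a CCA1-binding site at -18.

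**Figure D3:**
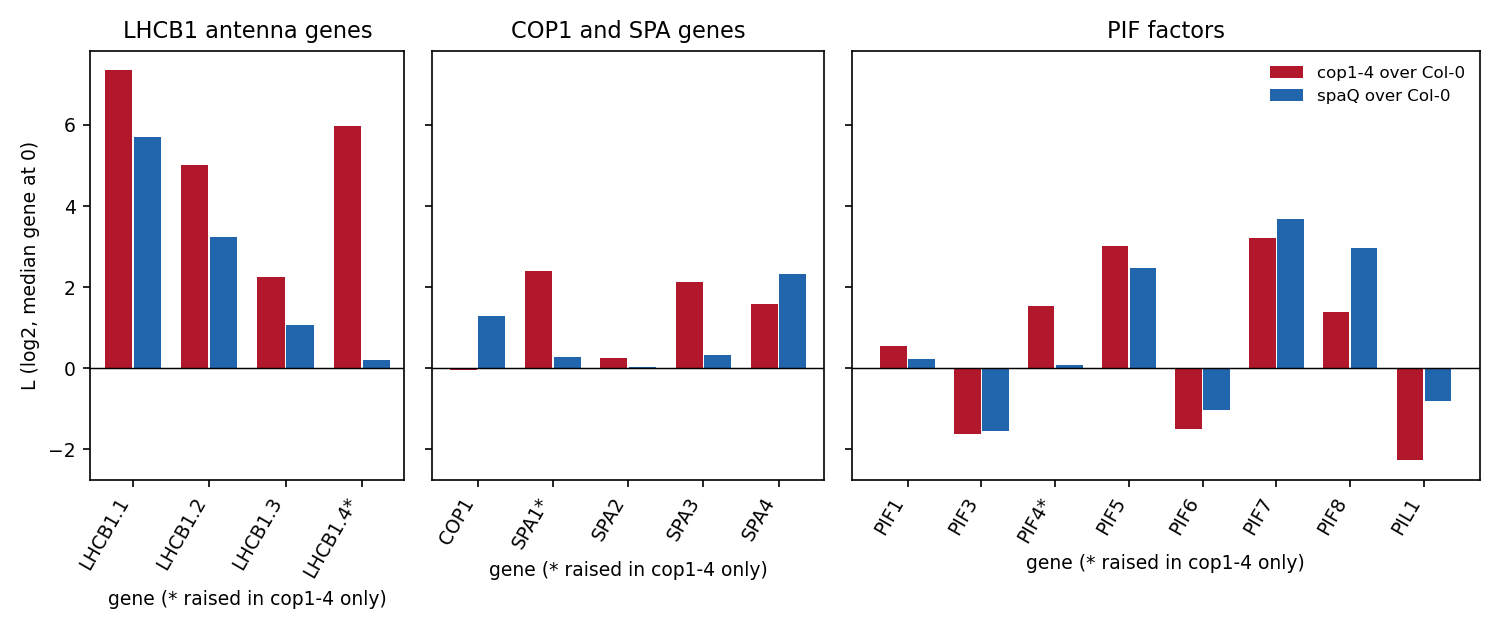
Bars give L (log2, median gene at 0) in cop1-4 (red) and spaQ (blue) for 4 LHCB1 genes, for COP1 and the SPA genes, and for 8 PIF family genes; asterisks mark genes of the set. LHCB1.4, SPA1 and PIF4 each have a tall red bar and a short blue one, SPA3 has the same form (2.12 and 0.32), and the remaining LHCB1 genes, SPA4, PIF5, PIF7 and PIF8 are above 0 in both mutants.

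Among genes of carbon and nitrogen use, STP1, which encodes a plasma membrane hexose transporter, had 333 CPM per kilobase of transcript in cop1-4, behind ACT2 and LHCB1.4. It had 788, 855 and 834 CPM in cop1-4, 348, 400.0 and 411 CPM in spaQ and 402, 449.6 and 434 CPM in Col-0, and L was 1.21 in cop1-4 and 0.18 in spaQ. All cop1-4 libraries were above the rest, and spaQ overlapped Col-0. STP1 is overlapped over 12.2% of its length by a gene on the opposite strand. Its relatives STP4 and STP13 had L of 0.41 and 0.33 in cop1-4 and 0.63 and 0.19 in spaQ.

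AGT3, annotated as an alanine:glyoxylate aminotransferase, had 475, 517 and 561 CPM in cop1-4, 165, 222 and 174 CPM in spaQ and 198, 217 and 205 CPM in Col-0. The 3 cop1-4 libraries were apart from the rest, and 1 spaQ library exceeded every Col-0 library. L was 1.59 in cop1-4 and 0.19 in spaQ. AGT1, the photorespiratory aminotransferase, rose by 4.09 in cop1-4 and 4.21 in spaQ on the log2 scale, and AGT2 fell by 0.35 in cop1-4 and 0.68 in spaQ (edgeR, adjusted p below 0.05).

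PHS2, the cytosolic alpha-glucan phosphorylase that acts on glucans derived from starch breakdown, had 53.4, 66.7 and 49.9 CPM in cop1-4, 25.3, 28 and 27.5 CPM in spaQ and 34.9, 40.1 and 31.5 CPM in Col-0. Its groups were close, and the lowest cop1-4 library was 1.25-fold above the highest Col-0 library. L was 0.93 in cop1-4 and -0.06 in spaQ. UPS2, a ureide and uracil permease, had a low level of 3.94 ± 0.253 CPM in cop1-4, 1.28 ± 0.17 CPM in spaQ and 1.95 ± 0.216 CPM in Col-0 (SD, n = 3). In CPM spaQ was below Col-0 in all libraries, but the 2 overlapped after scaling to the median gene. L was 1.12 in cop1-4 and -0.13 in spaQ.

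The promoter of PHS2 (chr3:17306634-17306883, minus strand) is shown as one of the 9 in the set with a G-box.
PHS2: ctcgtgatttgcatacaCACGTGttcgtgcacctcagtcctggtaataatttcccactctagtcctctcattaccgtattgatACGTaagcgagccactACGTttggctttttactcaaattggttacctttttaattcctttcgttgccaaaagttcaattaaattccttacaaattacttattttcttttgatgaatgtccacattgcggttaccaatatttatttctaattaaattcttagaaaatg
The G-box began at -233, and the window held 3 ACGT cores, of which 1 was inside the G-box.

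Regulators of transcription, RNA and protein turnover made up 7 members. KFB20, a kelch-repeat F-box protein that targets phenylalanine ammonia-lyase for degradation, had 241, 278 and 277 CPM in cop1-4, 112, 120.5 and 134 CPM in spaQ and 148, 144 and 150.1 CPM in Col-0. Its lowest cop1-4 library was 1.6-fold above the highest other library, as in the median gene of the set. The spaQ libraries were all below those of Col-0 in CPM. L was 1.11 in cop1-4 and 0.06 in spaQ. Of 10 genes listed for sugar and energy starvation, 8 were called higher in cop1-4 and 6 in spaQ, with 0 lower in either. The list includes KFB20, whose higher call in cop1-4 was fixed by the rule. Over all genes tested, 31.8% were called higher in cop1-4 and 35.5% in spaQ. The list's median log2 fold changes were 1.09 in cop1-4 (all genes 0.01) and 0.62 in spaQ (all genes -0.02). With library totals 4 of the 10 were called lower in spaQ. ASN1, the dark-induced asparagine synthetase, rose by 2.54 in cop1-4 and 1.55 in spaQ, and DIN10 by 1.41 in cop1-4 and 1.24 in spaQ.

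TZF1, a tandem CCCH zinc finger protein that binds RNA, had 177, 193 and 193 CPM in cop1-4, 62.5, 76 and 69.4 CPM in spaQ and 87.1, 77.1 and 80.1 CPM in Col-0. The cop1-4 libraries were more than double any other, and every spaQ library was below every Col-0 library in CPM. L was 1.46 in cop1-4 and 0.10 in spaQ.

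RSL2, a bHLH factor of root hair growth, had 7.34, 10.7 and 10.9 CPM in cop1-4, 3.03, 3.48 and 2.8 CPM in spaQ and 2.48, 3.51 and 3.68 CPM in Col-0. The first cop1-4 library was lower than the others but above every spaQ and Col-0 library. L was 1.71 in cop1-4 and 0.28 in spaQ. Its relatives RSL4 and RHD6 had L of 0.73 and 0.41 in cop1-4 and 0.77 and 0.22 in spaQ. Among the 9 cell type markers listed, 8 were called lower and 1 higher in cop1-4, and 6 lower, 1 higher and 2 not called in spaQ. Over all genes tested, 30.3% were called lower in cop1-4 and 36.1% in spaQ. The summed level of the markers was 3851 to 4426 CPM in cop1-4, 4213 to 5160 CPM in spaQ and 9825 to 10518 CPM in Col-0. In any genotype, 0 of the markers were at 0. PYK10, a beta-glucosidase, made up most of each sum, with 3713 to 4240.3 CPM in cop1-4, 4029.6 to 4707 CPM in spaQ and 8095 to 8759.9 CPM in Col-0. The other 8 markers summed to 138 to 186 CPM in cop1-4, 184 to 453 CPM in spaQ and 1731 to 1894 CPM in Col-0. CASP1 of the root endodermis averaged 97.1 CPM in cop1-4, 40.5 CPM in spaQ and 348 CPM in Col-0, and PORA of etiolated cotyledons averaged 19.3 CPM in cop1-4, 8.06 CPM in spaQ and 953 CPM in Col-0. SPCH of the stomatal lineage, the marker called higher, averaged 5.38 CPM in cop1-4, 4.53 CPM in spaQ and 1.74 CPM in Col-0. The seed storage genes CRU1 and CRU3 were not called in spaQ. They averaged 13.6 and 11.1 CPM in cop1-4, 140 and 99.3 CPM in spaQ and 235 and 205 CPM in Col-0. KAT1, GL2 and STM were called lower in both mutants. The part of these cell types in the levels of the 59 genes was not tested.

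ROXY2, a CC-type glutaredoxin known from anther development, had 6.17, 6.73 and 6.09 CPM in cop1-4, 1.2, 1.57 and 1.54 CPM in spaQ and 1.18, 1.84 and 1.73 CPM in Col-0. The groups of spaQ and Col-0 overlapped, and cop1-4 was more than 3 times as high. L was 1.97 in cop1-4 and 0.22 in spaQ. bHLH94, a bHLH factor, had 3.64 ± 0.485 CPM in cop1-4, 0.818 ± 0.261 CPM in spaQ and 1.04 ± 0.271 CPM in Col-0 (SD, n = 3), with L at 1.69 in cop1-4 and 0.10 in spaQ.

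VIM2, a methylcytosine-binding protein of DNA methylation maintenance, had 1.29, 1.4 and 1.38 CPM in cop1-4, 0.366, 0.542 and 0.526 CPM in spaQ and 0.526, 1.05 and 0.425 CPM in Col-0, with L at 0.93 in cop1-4 and 0.08 in spaQ. The second Col-0 library came close to cop1-4. VIM2 shares 98.8% identity over 88.1% of its transcript with VIM4, so reads may be split between the copies and both values are uncertain. VIM4 had an L of 1.86 in cop1-4 and -0.34 in spaQ. The RING protein gene AT3G51325 had 3.13 ± 0.723 CPM in cop1-4, 0.963 ± 0.258 CPM in spaQ and 1.38 ± 0.462 CPM in Col-0.

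Members that act on lipids, the cell wall or the surface numbered 7. KCS8, a ketoacyl-CoA synthase of the family that elongates very-long-chain fatty acids, had 102, 143 and 144 CPM in cop1-4, 56.8, 50.5 and 56.5 CPM in spaQ and 77, 69.7 and 78.4 CPM in Col-0, and L was 1.05 in cop1-4 and -0.13 in spaQ. The spaQ libraries were all below those of Col-0 in CPM. A short stretch of KCS8, 12.2% of its transcript, is 98.7% identical to AT2G15120. SPP1, a sphingoid phosphate phosphatase, had 82.8, 86.9 and 87 CPM in cop1-4, 41, 43.9 and 44.3 CPM in spaQ and 50.5, 43.8 and 48.6 CPM in Col-0. The cop1-4 range was narrow, and the other genotypes overlapped in CPM but not after scaling to the median gene. CEL5, a cellulase of the root cap, had an L of 1.01 in cop1-4 and 0.25 in spaQ. CYP86B1, a P450 that hydroxylates very-long-chain acids for suberin, averaged 1.26 CPM in cop1-4, 0.242 CPM in spaQ and 0.413 CPM in Col-0. The wax synthase-like gene AT5G53380 and the GDSL lipase genes AT4G01130 and AT1G71250 were also below 10 CPM, with L in cop1-4 of 1.31, 1.18 and 1.07. AT1G71250 varied most among the cop1-4 libraries of all members (33.6%, against a median of 12.2%, as SD over mean), and its Col-0 libraries had 0.588, 0.0362 and 0.602 CPM, the second far below the others.

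Genes of conjugation and oxidation numbered 5. SCPL13, a serine carboxypeptidase-like protein, had 68.5, 74.9 and 73 CPM in cop1-4, 25.4, 27.2 and 28.2 CPM in spaQ and 37.4, 35.7 and 35.1 CPM in Col-0, and L was 1.25 in cop1-4 and -0.08 in spaQ. CYP87A2, a P450, had 52.3, 60.6 and 71.3 CPM in cop1-4, 31.9, 26.1 and 25.8 CPM in spaQ and 30.3, 26.7 and 31.4 CPM in Col-0, and L was 1.31 in cop1-4 and 0.25 in spaQ. In SCPL13 the spaQ libraries were below those of Col-0 in CPM. In CYP87A2 they overlapped in CPM, but not after scaling to the median gene, where spaQ was above Col-0. PMAT2, a phenolic glucoside malonyltransferase, was low at 1.94 ± 0.0781 CPM in cop1-4, 0.156 ± 0.141 CPM in spaQ and 0.34 ± 0.0143 CPM in Col-0 (SD, n = 3), with L at 1.8 in cop1-4 and -0.03 in spaQ. SULT202B1, a sulfotransferase, had an L of 1.06 in cop1-4 and -0.14 in spaQ, and the GH3 family gene AT5G51470, of a family that conjugates hormones to amino acids, had 0.91 in cop1-4 and -0.01 in spaQ.

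Transporters numbered 5. LAX1, an auxin influx carrier, had 61.8, 63.2 and 65 CPM in cop1-4, 27, 26.1 and 29.7 CPM in spaQ and 37.9, 36.9 and 36.4 CPM in Col-0, and L was 1.03 in cop1-4 and -0.09 in spaQ. Every spaQ library was below every Col-0 library in CPM, and cop1-4 was above both with little spread. AUX1, the related carrier, fell by 0.60 in cop1-4 and 0.83 in spaQ on the log2 scale (edgeR, adjusted p below 0.05). VTL2 and VTL5, of the vacuolar iron transporter-like family, had L of 1.41 and 1.23 in cop1-4 and -0.08 and -0.17 in spaQ, while VTL1 had L of -1.17 and -1.33. VTL2 and VTL1 were low, at 2.06 and 0.349 CPM in cop1-4, 0.367 and 0.229 CPM in spaQ and 0.654 and 1.80 CPM in Col-0. There the edgeR log2 fold changes differed from L, at 1.95 and -0.48 for VTL2 and -2.03 and -2.64 for VTL1 in cop1-4 and spaQ. The MATE efflux gene AT2G04100 and the ABC transporter gene ABCG23 were near the fold limit, at 0.93 and 0.92.

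Among 4 genes of the cytoskeleton, trafficking and division, ACT2, a main actin of vegetative tissue that is often used as a reference gene, had 2950.1, 2819 and 2859.9 CPM in cop1-4, 1697, 1706 and 1839 CPM in spaQ and 1769, 1827 and 1776 CPM in Col-0. All cop1-4 libraries were at least 1.5 times the others, and spaQ and Col-0 overlapped in CPM. L was 0.95 in cop1-4 and 0.29 in spaQ, just inside the spaQ limit, and leaving out single libraries took it to 0.32. ACT7 fell by 1.1 in cop1-4 and 1.25 in spaQ on the log2 scale, and ACT8 fell by 0.45 in spaQ and was 0.36 in cop1-4, a call that was lost with library totals (0.05). The formin gene AT3G07540, the kinase gene FU and the ENTH-domain gene AT1G68110 had L in cop1-4 of 0.93, 0.92 and 0.97.

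**Figure D4:**
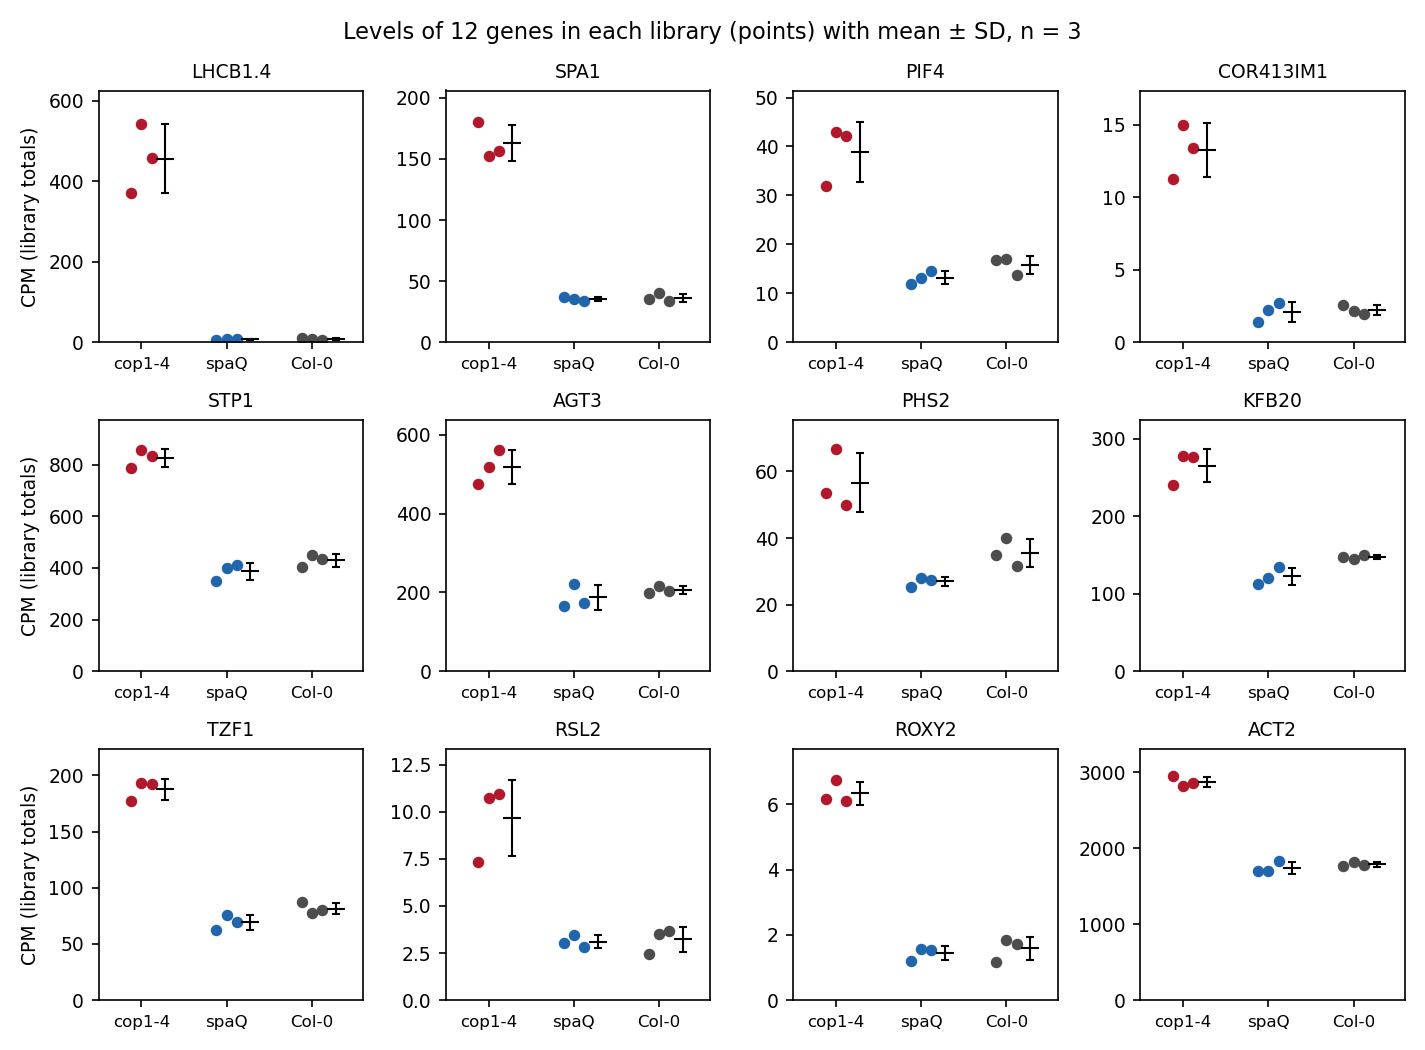
Points give the CPM (library totals) of 12 members in each library and the bars the mean ± SD of 3 libraries, for cop1-4 (red), spaQ (blue) and Col-0 (grey), each panel with its own axis from 0. In every panel the 3 cop1-4 points lie above the 6 others, by most in LHCB1.4 and by the smallest ratio in PHS2.

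Among 4 members of stress and defence, COR413IM1, a cold-regulated protein of the chloroplast inner envelope, had 11.3, 15 and 13.4 CPM in cop1-4, 1.37, 2.24 and 2.7 CPM in spaQ and 2.57, 2.17 and 1.91 CPM in Col-0. The cop1-4 libraries were more than 4 times as high as any other, and spaQ overlapped Col-0. L was 2.6 in cop1-4 and 0.27 in spaQ. The adjacent copy COR413IM2 had a smaller L of 0.99 in cop1-4 and 0.45 in spaQ. Of 10 listed cold response genes 6 were tested. In cop1-4, 4 were called higher and 2 lower, and in spaQ 3 higher, 1 lower and 2 not called. Over all genes tested, 62.1% were called in either direction in cop1-4 and 71.6% in spaQ. The list's median log2 fold changes were 1.03 in cop1-4 (all genes 0.01) and 1.19 in spaQ (all genes -0.02). With library totals the list's lower calls in spaQ were 2. KIN2 rose by 1.67 in cop1-4 and 3.00 in spaQ, and COR47 fell by 0.91 in cop1-4 and 1.09 in spaQ. The kinase gene MAPKKK20, the TIR-NBS gene AT1G72890 and the defensin-like gene AT4G22214 had L in cop1-4 of 1.19, 1.03 and 1.2.

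The promoter of COR413IM1 (chr1:10289667-10289916, minus strand) also held a G-box.
COR413IM1: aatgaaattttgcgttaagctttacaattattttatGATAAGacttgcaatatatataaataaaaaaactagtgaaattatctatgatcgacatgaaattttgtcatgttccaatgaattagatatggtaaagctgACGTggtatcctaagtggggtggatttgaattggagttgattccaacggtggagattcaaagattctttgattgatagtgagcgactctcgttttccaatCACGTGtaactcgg
It began at -14 from the start, and the I-box began at -214.

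Non-coding genes numbered 5 of the 59, and 54 coded for protein. AT1G69252 was the highest of the 5 per kilobase (130 CPM in cop1-4), with 108, 125 and 129.5 CPM in cop1-4, 68.9, 73.2 and 72.3 CPM in spaQ and 79.5, 72.4 and 79.3 CPM in Col-0, and L was 0.91 in cop1-4 and 0.22 in spaQ. AT3G13277, AT3G61198, AT2G07042 and AT4G05715 had mean levels of 12.4, 5.93, 2.07 and 0.491 CPM in cop1-4. AT3G61198 had 4.55, 5.80 and 7.43 CPM in cop1-4, 1.3, 2.04 and 1.51 CPM in spaQ and 2.82, 2.71 and 2.73 CPM in Col-0.

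For 15 members no role is given here. AT5G23700, a predicted coiled-coil protein, had the fourth largest L, with 10.2, 11.4 and 9.21 CPM in cop1-4, 2.33, 2.45 and 2.03 CPM in spaQ and 1.89, 3.00 and 2.62 CPM in Col-0 and L of 2.1 in cop1-4 and 0.21 in spaQ. It is overlapped over 24.7% of its length by a gene on the opposite strand, and with no stated strand setting the reads of the pair cannot be told apart. AT4G04630, AT1G69710, AT1G55990, AT3G10880, AT1G67860 and AT1G64370 followed with L in cop1-4 of 1.46, 1.45, 1.34, 1.3, 1.24 and 1.13. AT3G45730, the highest of the 15 per kilobase (40.8 CPM per kilobase in cop1-4), had 37.2 ± 2.69 CPM in cop1-4, 19.5 ± 1.36 CPM in spaQ and 22.8 ± 1.28 CPM in Col-0 (SD, n = 3). AT1G21670 had 70.8, 71.6 and 67.2 CPM in cop1-4, 33.8, 33.8 and 36.3 CPM in spaQ and 42.1, 44.7 and 43.1 CPM in Col-0. In CPM spaQ was below Col-0 in every library, but after scaling to the median gene they overlapped. L was 0.95 in cop1-4 and 0.01 in spaQ. The remaining 6, AT2G25200, AT4G33980, AT4G32340, AT4G14490, AT5G08360 and AT1G25400, had L from 0.91 to 1.06.

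By edgeR's quasi-likelihood test, 59 of the 59 genes were called higher in cop1-4 than in Col-0 at an adjusted p below 0.05, where 31.8% of the 20779 genes tested were called higher and 62.1% in either direction. They were also called higher in cop1-4 than in spaQ, 59 of 59, where 23.5% of all genes were. Against Col-0, spaQ was called higher in 9 of them, where 35.5% of all genes were called higher and 71.6% in either direction, and lower in 0, where 36.1% of all genes were. The rule fixed these counts, and nothing is read from them. The 9 became 5 without spaQ replicate 3 (4 of them higher) and 21 with library totals, 0 of them higher. In the authors' deposited tables, 49 of the 59 are listed as higher in cop1-4 and 0 are listed for spaQ. Those tables hold 5249 genes for cop1-4 and 7261 for spaQ, in either direction. Neither table holds a gene under an absolute log2 fold change of 1.00. Both belong to the same dataset, so the rule largely fixed these counts as well, and they are no outside check. For 14 members the edgeR fold change in spaQ was outside ±0.3. That fold change adds a smaller constant to low counts and uses TMM scaling in place of the median shift. Of the 14, 7 had a Col-0 mean under 1 CPM, such as AT1G71250 (-1.60), ABCG23 (-0.88) and PMAT2 (-0.83). The other 7 had a higher Col-0 mean, among them ACT2 (0.34) and SPA1 (0.32).

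The rule used neither gene structure nor position. Of the 59 genes, 22 (37.3%) had a single exon in the annotation, against 15.9% of the 2504 other genes raised in cop1-4 and 16.9% of all genes tested. The median member had 2 exons, against 4 in both of those sets, and median transcript lengths were 1625, 1608 and 1712 bases. By chromosome, 19 members lay on chromosome 1, 11 on 2, 13 on 3, 8 on 4 and 8 on 5, and the nearest pair was 14 genes apart. Of the 59, 12 were overlapped by another gene, 0 of them over 50% of their length or more, and for 10 of the 12 that gene was on the opposite strand.

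Promoters were searched for 9 short motifs on either strand, from 250 bases before to 50 after the annotated start. The G-box CACGTG was in 9 of 59 (15.3%) member promoters, 10.2% of the promoters of other genes raised in cop1-4 and 7.11% of 32546 promoters in all. The 9 were COR413IM1, PHS2, MAPKKK20, AT1G68110, AT1G69252, AT2G04100, AT3G45730, AT4G14490 and AT5G53380. The ACGT core, which lies within every G-box, was in 57.6%, 54.1% and 48.8%. The I-box GATAAG was in 16.9%, 21.6% and 14.8%, the CCA1-binding site AAAAATCT in 11.9%, 9.07% and 7.48%, and the evening element AAATATCT in 6.78%, 8.31% and 5.36%. The TATA motif TATAAA was in 57.6%, 49.1% and 50.6%, the W-box core TTGAC in 47.5%, 49.1% and 49.9%, the site II core TGGGC in 23.7%, 25.8% and 25.1%, and the telo-box AAACCCTA in 3.39%, 3.84% and 6.19%. These are shares of sequences with a match and carry no test.

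**Figure D5:**
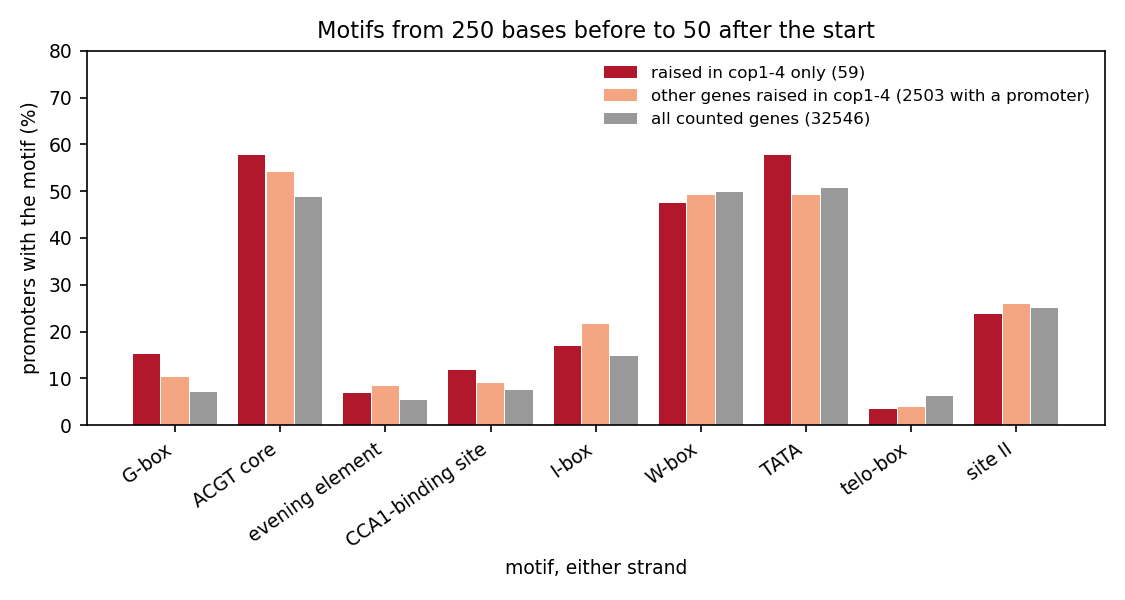
Bars give the percentage of promoters (250 bases before to 50 after the start) that hold each motif on either strand, for the 59 genes (red), the other genes raised in cop1-4 (orange) and all counted genes (grey). The bar of the 59 genes is the highest for the G-box (15.3%), the ACGT core, the CCA1-binding site and TATA. That of the other raised genes is the highest for the I-box (21.6%), the evening element and site II. For the W-box and the telo-box it is that of all counted genes.

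Among genes outside the set, those whose log2 CPM over the 9 libraries was most like the median member profile were UGE1, a UDP-glucose epimerase (Pearson's r of 0.993), AT2G40420 (0.991) and AT1G19400 (0.989). Their L in cop1-4 was 0.81, 0.69 and 0.88, below the limit, and in spaQ 0.12, 0.23 and 0.19. The 9 libraries fall into genotypes, so these values describe likeness of profile over 3 genotypes.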

How the data were processed

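Raw counts of reads per gene in 9 RNA-seq libraries were deposited in one table. For each mutant the authors also deposited a list of regulated genes, giving log2 fold changes and false discovery rates (adjusted p-values), which served only for comparison. Per the submitters' processing notes, the build was TAIR10 and the tools were HTSeq, TopHat, Bowtie2, FastQC and DESeq2, in no stated order; no version, strand setting or handling of reads with several matches is given in the sources used here. Libraries held 22482588 to 38770474 counted reads.

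Members were found with CPM from library totals, a pseudocount of 0.5 and the median shift given with the results. The members, gene lists and tests were chosen with earlier results of these data known. Counts were tested with edgeR 4.0.16 (R 4.3.3; filterByExpr, TMM, quasi-likelihood, Benjamini-Hochberg adjustment, threshold 0.05) over all 9 libraries with genotype as the only term, giving 20779 genes tested and 6 residual degrees of freedom; all 59 members passed the filter. The test and the rule were also run on simulated counts, with some genes raised in cop1-4 and none changed in spaQ. That setting differs from these data and does not check the scaling. The gene table and promoters come from RefSeq TAIR10.1, which matched all 32548 AT identifiers; the deposited files hold no coordinates. Close copies were sought with BLAST 2.17.0 (at least 95% identity over 100 bases). Figures were drawn with matplotlib 3.10.9.

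Alternatives were other scalings (library totals, RLE, TMM for the rule), pseudocounts, thresholds, no filter, DESeq2 1.42.0, a replicate block and each library left out. Named members are the 25 with the largest L at a mean of at least 1 CPM, the 10 with the highest CPM in cop1-4, list members and 3 on each side of each limit; others are named by role, and the roles were assigned after their values were seen. Relatives of members were also chosen then.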

Additional observations from a re-analysis of the deposited data

How the results depend on the processing

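A limit of 1.2 on L in cop1-4 gave 25 genes, and limits of 0.2 and 0.5 on L in spaQ gave 38 and 113. The other settings gave 53 to 82 genes, and leaving out each library in turn gave 52 to 69. With library totals the median L of the 59 was 0.86 in cop1-4 and -0.22 in spaQ; with libraries left out it was 1.1 to 1.21 in cop1-4 and 0.079 to 0.16 in spaQ, the highest without spaQ replicate 1. Members called in spaQ against Col-0 were 21 with library totals and 5 to 12 with libraries left out, the 5 without spaQ replicate 3. All 59 were called higher in cop1-4 under every setting run. Genes called over the whole table stayed within 1.5 times: with libraries left out, 11891 to 12961 in cop1-4 against Col-0, 14078 to 15362 in spaQ against Col-0 and 8437 to 10232 between the mutants. Library totals moved the share of higher calls to 28.5% in cop1-4 against Col-0 (51.2% with TMM) and 29.9% in spaQ (49.6% with TMM). The sign of COP1 in cop1-4 turned with library totals (-0.31), RLE (-0.012), DESeq2 (-0.012) and with libraries left out (-0.090 to 0.089), and library totals turned SPA2 in cop1-4 (-0.013) and spaQ (-0.31), SPA3 in spaQ (-0.00741) and PIF1 in spaQ (-0.091); the cause was not tested beyond the scaling itself. Same-numbered libraries of different genotypes correlated in their deviations at -0.149 to 0.163. Differently numbered libraries were not compared, so these values do not settle whether the numbers pair the libraries. A replicate block gave 12727, 14731 and 9585 calls in place of 12909, 14878 and 9862. Of the 59, 37 averaged under 10 CPM in Col-0, where counting error limits the values most.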
